A study of Macaca mulatta with 7 samples.

Results

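Neurexins and neuroligins are the genes described here. The list holds 2 neurexin genes, NRXN2 and NRXN3, and 3 neuroligin genes, NLGN1, NLGN2 and NLGN3, which are 5 of the 28966 genes counted in single-nucleus libraries made from the spinal cord of rhesus monkeys (Macaca mulatta). Each was found by its symbol, and each symbol belonged to 1 identifier. The list was chosen by the level of NRXN3 in oligodendrocyte nuclei at 7 days after injury, so that level is given as a description and supports nothing. The study cut the thoracic cord of adult female monkeys completely, removed a piece of it, and profiled lumbar cord far below the lesion at 7, 14 and 30 days post injury (dpi) and at 6 months post injury (mpi). The reference was the intact cord of an uninjured monkey aged 5 years, from which a cervical, a thoracic and a lumbar library were made. The injured lumbar libraries came from monkeys aged 7 years for 7 and 14 dpi and 6 years for 30 dpi and 6 mpi. There was 1 library per group, so time point, animal, age and library preparation cannot be told apart, and no test between groups was possible.

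Neurexins are presynaptic adhesion molecules, and neuroligins are one family of their postsynaptic partners. Both span the membrane, bind each other across the synaptic cleft and hold scaffold proteins on either side. NLGN1 protein is known from excitatory synapses, NLGN2 from inhibitory synapses, and NLGN3 from both kinds. Glia also express members of both families: astrocytes carry neuroligins that contact neuronal neurexins, and NLGN3 is abundant in the oligodendrocyte lineage. Alternative promoters and splicing give each neurexin gene many isoforms, which counts taken per gene do not separate.

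In the RefSeq annotation of Mmul_10, the build used for alignment, NRXN3 (ENSMMUG00000013842) lies on chromosome 7 from 140299436 to 142019837 on the plus strand. It is the longest member, and its 28 exonic blocks spread over 1720.4 kb, so most of the locus is intron. NRXN2 (ENSMMUG00000022595) spans 117.2 kb of chromosome 14 from 9820560 to 9937806. NLGN1 (ENSMMUG00000004671) spans 901 kb of chromosome 2 from 78404863 to 79305883. NLGN2 (ENSMMUG00000055083) is the shortest, 15.1 kb on chromosome 16 from 7171714 to 7186856. NLGN3 (ENSMMUG00000032427) takes 26.8 kb of chromosome X from 68131291 to 68158110. All 5 are on the plus strand, and no protein-coding gene overlaps them, though 3 non-coding genes overlap NRXN3, 1 of them on its strand. Long genes give nuclear libraries more reads where introns are counted, which the sources used here do not state, and levels were therefore compared between classes and libraries for 1 gene at a time and never between genes.

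The 7 libraries held 69332 barcodes, of which 63730 nuclei were kept, between 5637 at 6 mpi and 11002 in the thoracic library. Pairs of libraries shared 12 to 36 barcodes, at most 0.379% of the smaller library. Nuclei were named from marker genes as oligodendrocyte-like, oligodendrocyte precursor (OPC)-like, astrocyte-like, microglia-like and neuron-like, and levels are CPM, the UMIs (unique molecular identifiers) of a gene per 1000000 UMIs of a class in a library. Intervals are exact Poisson or binomial 95% intervals that cover counting error only. Oligodendrocyte-like nuclei split by condition: clusters 0 and 8 held 70.5% to 99.0% of them in the injured libraries and 0.405% to 2.42% in the intact ones. Their median depth ran from 3506 UMIs at 6 mpi to 8625 in the thoracic library. Injured libraries had few astrocyte-like nuclei, 99, 253, 144 and 109 from 7 dpi to 6 mpi, against 904 to 1609 in the intact ones. OPC-like nuclei numbered 370, 238, 340 and 223 in the same order, against 687 to 1446.

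Per UMI, NRXN2 was most abundant in OPC-like nuclei in all 7 libraries, at 1.83 to 2.85 times the next class, which was always oligodendrocyte-like. The intact OPC-like levels were 262 CPM in cervical, 256 in thoracic and 290 in lumbar cord. Oligodendrocyte-like nuclei had 114, 126 and 113, and neuron-like nuclei 87.0, 99.3 and 90.0, so the order oligodendrocyte before neuron held in every segment. Astrocyte-like nuclei were lower, at 40.0 to 51.5 CPM, and microglia-like nuclei had 3.95 to 4.77. A gene of neuronal synapses was thus read at a higher level per UMI in the oligodendrocyte lineage than in neuron-like nuclei. Orders of classes here and below are per UMI, not per nucleus. Neuron-like nuclei were deeper, with intact medians of 31676, 30406 and 26553 UMIs against 7164, 6766 and 5885 in OPC-like nuclei. Unthinned, 74.8%, 81.8% and 83.8% of neuron-like and 79.2%, 77.4% and 77.9% of OPC-like nuclei had an NRXN2 UMI.

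NRXN3 had another distribution. Intact neuron-like nuclei held 3508 CPM in cervical, 3173 in thoracic and 3777 in lumbar cord. Astrocyte-like nuclei followed with 1669, 2151 and 632, a 3.40-fold range within a single animal, and OPC-like nuclei with 307, 341 and 468. Intact ependymal-like nuclei, the ciliated lining of the central canal, held 3421 to 4737 CPM. Oligodendrocyte-like nuclei were at the bottom with 33.1, 26.3 and 33.6, beside 52.7, 27.0 and 43.4 in microglia-like nuclei, which were taken to lack the gene. In the thoracic library the intervals of those lowest classes overlapped, and in the other intact libraries the oligodendrocyte-like level was the lower one.

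NLGN1 was highest in OPC-like nuclei throughout, at 5554 to 6321 CPM over the 7 libraries, or 1.66 to 1.98 times the neuron-like level of 2939 to 3753. Astrocyte-like nuclei held 1089 to 1385 in intact cord, oligodendrocyte-like nuclei 522 to 747, and microglia-like nuclei 37.6 to 70.7. NLGN2, the neuroligin of inhibitory synapses, was thinly counted. Its intact levels were 34.8 to 47.1 CPM in OPC-like, 30.2 to 34.5 in neuron-like and 17.1 to 21.1 in astrocyte-like nuclei, and OPC-like and neuron-like nuclei differed by only 1.01-fold in the thoracic library. Oligodendrocyte-like nuclei had 5.64 to 6.37 and microglia-like nuclei 1.26 to 3.14. NLGN3 led in OPC-like nuclei at 60.3 to 79.0 CPM and in oligodendrocyte-like nuclei at 49.1 to 56.7, with 21.3 to 22.6 in neuron-like and 7.26 to 9.96 in microglia-like nuclei. The oligodendrocyte-like level of NLGN3 was 219% to 320% of the neuron-like level in the same library, and that of NRXN2 112% to 157%, whereas NLGN1 stood at 17.8% to 35.3% and NLGN2 at 17.6% to 31.2%.

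**Figure D1:**
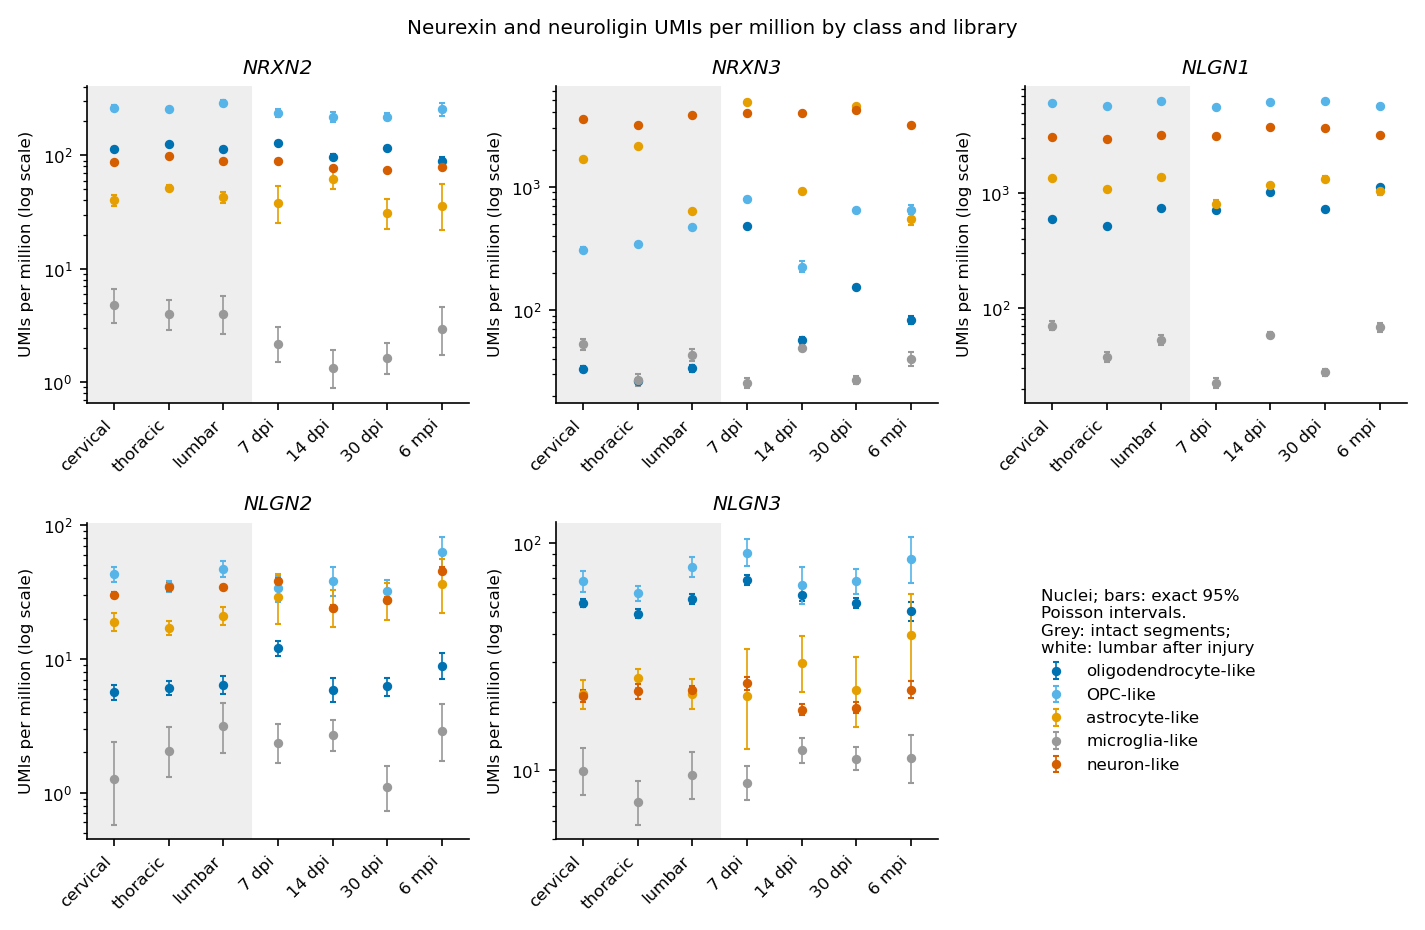
CPM (log axis) of each member in 5 classes of nuclei and 7 libraries, with exact 95% Poisson intervals; grey marks the intact segments. NRXN2, NLGN1 and NLGN3 kept their leading class, OPC-like, in every library, while NRXN3 in oligodendrocyte-like nuclei lay at 26.3 to 33.6 in intact cord and at 56.8 to 475 after injury.

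In oligodendrocyte-like nuclei NRXN3 read 475, 56.8, 153 and 82.7 CPM from 7 dpi to 6 mpi. At 7 dpi the level rested on 10446 UMIs in 3788 nuclei, and the log2 ratio to intact lumbar was 3.82 with a 95% interval of 3.72 to 3.93. All 4 injured libraries lay above the 3 intact ones. The ratios to intact lumbar were 14.2-fold, 1.69-fold, 4.56-fold and 2.46-fold in that order of time, so the levels followed no steady course, and the 14 dpi library was the lowest of the 4. Ordered from the highest ratio, NRXN3 had rank 13 of 9718 genes at 7 dpi, 41 at 30 dpi, 226 at 6 mpi and 349 at 14 dpi. The values chose the list, and no test attaches to them. The study named SERPINA3, MT2A and UBASH3B beside NRXN3 as high in oligodendrocyte clusters that emerged after injury. Its clusters came from a wider set of samples that included these. SERPINA3 is an acute-phase protease inhibitor, MT2A a metallothionein and UBASH3B a phosphatase. These genes read 63.9, 109 and 60.03 CPM at 7 dpi against 0.0787, 3.85 and 16.5 in intact lumbar cord. The intact SERPINA3 level there is 2 UMIs, so no fold is given. At 7 dpi SERPINA3 read 2652 CPM in astrocyte-like nuclei against 5.36 in intact lumbar cord, and 56.3 against 0.819 in microglia-like nuclei. Its higher level at 7 dpi was thus not particular to oligodendrocyte-like nuclei.

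Per UMI, the intact level of NRXN3 in oligodendrocyte-like nuclei was no higher than in microglia-like nuclei, the class taken as background. To compare libraries at equal depth, every nucleus was thinned to 1000 UMIs. A UMI of NRXN3 then remained in 3.18% of cervical, 2.76% of thoracic and 4.09% of lumbar oligodendrocyte-like nuclei. In microglia-like nuclei the shares were 4.96%, 3.17% and 4.70%. Unthinned, the intact shares were higher in oligodendrocyte-like nuclei, at 19.5%, 14.0% and 15.9% against 16.7%, 9.51% and 12.9%. Oligodendrocyte-like nuclei were also the deeper ones, with medians of 7581, 8625 and 5714.5 UMIs against 4017.5, 4022 and 3234. At 14 dpi the thinned shares were 5.03% and 5.05% (22.8% and 18.4% unthinned). The levels there were 56.8 CPM (53.1 to 60.7) in oligodendrocyte-like and 49.2 (46.3 to 52.3) in microglia-like nuclei. They were close but had intervals that did not overlap. At 7 dpi 17.4% of oligodendrocyte-like nuclei (interval 16.3% to 18.7%, 31.4% unthinned) but 2.79% of microglia-like nuclei (2.27% to 3.40%, 9.77% unthinned) had a UMI. At 30 dpi the pair was 10.3% and 2.54% (26.6% and 11.9% unthinned). At 6 mpi it was 6.84% (5.75% to 8.05%) and 3.85% (3.11% to 4.72%), or 16.6% and 9.09% unthinned. That unthinned oligodendrocyte-like share at 6 mpi lay within the intact 14.0% to 19.5%, at a median depth of 3506 UMIs. Median depths at 7 dpi were 4681.5 UMIs in oligodendrocyte-like and 4203 in microglia-like nuclei. In neuron-like nuclei 62.9% to 72.7% had a UMI after thinning. The folds above are therefore over an intact level that, per UMI, was no higher than in microglia-like nuclei.

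**Figure D2:**
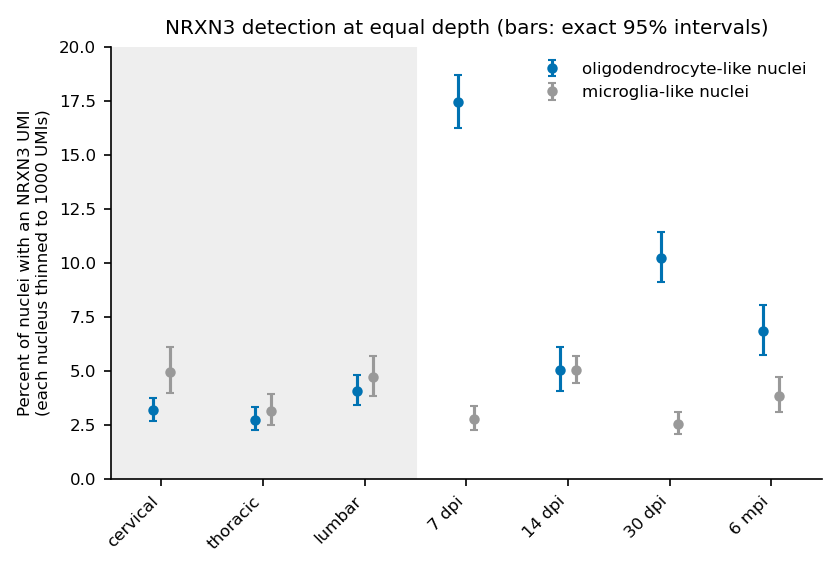
Percent of nuclei with an NRXN3 UMI after thinning each nucleus to 1000 UMIs, by library, for oligodendrocyte-like and microglia-like nuclei, with exact 95% binomial intervals; grey marks the intact segments. The classes overlap in the thoracic, lumbar and 14 dpi libraries and part at 7 dpi (17.4% against 2.79%), 30 dpi and 6 mpi. In the cervical library they part the other way, with 3.18% of oligodendrocyte-like against 4.96% of microglia-like nuclei.

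Neuronal transcripts were read in oligodendrocyte-like nuclei too, and 20 neuron genes were set beside NRXN3 for that reason. As a percent of its neuron-like level in the same library, NRXN3 in oligodendrocyte-like nuclei stood at 0.943%, 0.829% and 0.889% in the intact segments, under the median neuron gene at 2.07%, 1.15% and 2.69%. At 7 dpi it stood at 12.1% against a median of 3.14%, with 6 of the 20 genes higher. At 14 dpi the pair was 1.42% and 3.49%, at 30 dpi 3.66% and 2.72%, and at 6 mpi 2.62% and 3.95%. The summed level of the 20 genes in oligodendrocyte-like nuclei was 521 to 535 CPM in intact cord and 608 to 641 after injury, and none of the 20 was at 0 in any library. Most of the sum was SNAP91, at 263 to 310 in intact cord and 265 to 301 after injury, and RIMS1, at 139 to 146 and 132 to 202. SNAP91 stood at 40.6% to 45.5% of its neuron-like level in the intact segments, far above the median gene. Whether these UMIs came from neurons was not tested. The 10 neuron markers used to name classes, some of them among the 20, summed to 148 to 170 in intact cord and to 136, 164, 177 and 128 from 7 dpi to 6 mpi. In oligodendrocyte-like nuclei with no UMI of any of the 20 genes, NRXN3 read 580, 56.7, 176 and 124 CPM from 7 dpi (822 nuclei) to 6 mpi, against 34.0 to 39.5 in the intact libraries. Choosing nuclei without these UMIs favours shallow nuclei, and the depth and clusters of this set were not compared with those of the class. Markers of other NRXN3-rich classes moved in part with NRXN3. The 6 ependymal markers summed to 101 to 103 CPM in intact oligodendrocyte-like nuclei. After injury they summed to 147, 87.6, 156 and 120 from 7 dpi to 6 mpi, with FOXJ1 at 0 in the 30 dpi library. Astrocyte markers, 6 in number and none at 0, summed to 193 to 230 in intact cord and to 293, 137, 162 and 195 after injury. The 6 OPC markers summed to 438 to 462 in intact cord and to 505, 306, 377 and 359 from 7 dpi to 6 mpi. Of these, CSPG4 was at 0 in all but the thoracic and lumbar intact libraries. Their part in the result was not tested. The 6 markers of the oligodendrocyte class itself summed to 12175 to 13584 in every library. Nuclei were uneven, and at 7 dpi the 1% of nuclei with the most NRXN3 UMIs held 24.8% of them, and 20.5% of nuclei had 2 or more, against 24.4% to 35.4% and 3.42% to 4.63% in intact cord.

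Oligodendrocyte-like clusters differed in OPALIN, a membrane protein gene of one kind of mature oligodendrocyte, and in NRXN3. In the intact libraries the OPALIN-high cluster 2 held 51.0, 43.2 and 49.997 CPM of NRXN3 from cervical to lumbar, and the OPALIN-low cluster 5 held 24.4, 20.2 and 22.9. In the injured libraries the OPALIN-high cluster 0 held 704, 74.9, 217 and 124 from 7 dpi to 6 mpi. The OPALIN-low cluster 8 held 275, 39.6, 94.4 and 52.6. The fold in CPM between the clusters of a library lay between 1.89 and 2.56 in all 7. OPALIN itself read 310 to 452 CPM in the high and 5.99 to 32.0 in the low clusters. The high clusters also had the shallower nuclei in all 7 libraries, with medians of 2890.5 to 6607 UMIs against 6985 to 13015.5. The fold is therefore per UMI and not per nucleus. In intact lumbar cord cluster 2 had 405 NRXN3 UMIs in 1583 nuclei and cluster 5 had 255 in 937. At 14 dpi cluster 0 had 533 in 1116 nuclei and cluster 8 had 292 in 621. At 7 dpi these had 7243 in 2471 and 3191 in 1280. The part of depth in the cluster difference was not tested. The intact clusters 2, 5 and 9 kept at least 50 nuclei in some injured libraries. Cluster 2 then read 69.9 CPM at 14 dpi and 110 at 6 mpi, cluster 5 read 30.0 (20.1 to 43.1) at 6 mpi against 20.2 to 24.4 in intact cord, and cluster 9 read 54.6 at 14 dpi and 40.8 at 6 mpi against 22.1 to 30.8. In the intact and 14 dpi libraries, where the share of nuclei with an NRXN3 UMI after thinning was no higher than in microglia-like nuclei, the cluster difference is not read as expression. The clusters were picked for their OPALIN level after their values were seen.

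**Figure D3:**
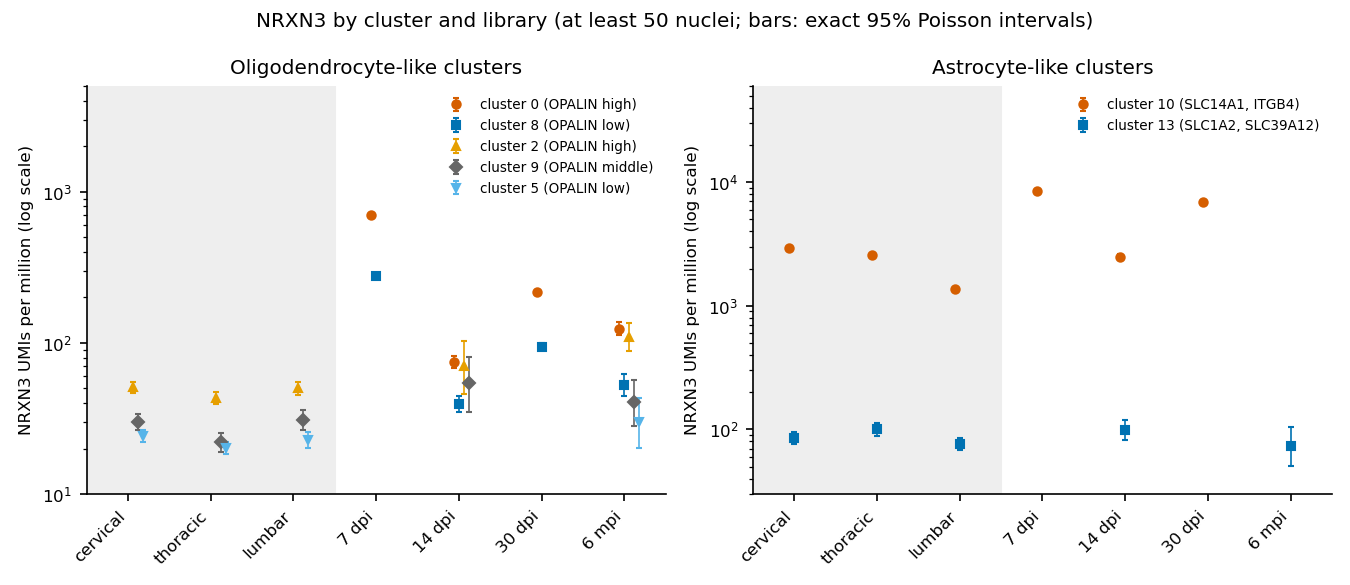
CPM of NRXN3 (log axis) in oligodendrocyte-like clusters (left) and astrocyte-like clusters (right) with at least 50 nuclei in a library; bars are exact 95% Poisson intervals and grey marks the intact segments. Per UMI, OPALIN-high clusters, which have the shallower nuclei, exceed OPALIN-low ones in every library. Astrocyte-like cluster 13 lies between 73.9 and 101 in the 5 libraries drawn and cluster 10 between 1363 and 8452 in 6. Cluster 13 at 7 and 30 dpi (401 and 336) is not drawn for having 39 and 48 nuclei.

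The other members did not share the NRXN3 pattern in oligodendrocyte-like nuclei. A gene was called where its log2 ratio to intact lumbar, taken on CPM plus 1, passed 1 and its level lay outside the 3 intact segments. Of the 5 members, all tested, 1 was called at 7 dpi, 30 dpi and 6 mpi, each time NRXN3, and 0 at 14 dpi. The NRXN3 level at 7 dpi chose the list, so its call there was fixed in advance and supports nothing. In nuclei with no UMI of the 20 neuron genes NLGN2 was called higher at 7 dpi as well. Of all genes tested, 6.55%, 4.14%, 4.12% and 6.82% were called from 7 dpi to 6 mpi. NRXN2 read 129, 97.6, 116 and 89.3 CPM from 7 dpi to 6 mpi against 113 to 126 in intact cord, so it was just above the intact range at 7 dpi and below it at 14 dpi and 6 mpi. NLGN1 read 707, 1024, 729 and 1138 against 522 to 747, above the intact range at 14 dpi and 6 mpi by 1.37-fold and 1.52-fold over lumbar. NLGN2 read 11.97, 5.87, 6.23 and 8.89 against 5.64 to 6.37. Its ratio at 7 dpi was 1.88-fold (log2 0.91, interval 0.62 to 1.20), on 263 against 162 UMIs. NLGN3 read 69.1, 59.3, 54.8 and 50.3 against 49.1 to 56.7, and its log2 ratio at 7 dpi was 0.28 (0.18 to 0.39). Scaling by the median gene in place of the UMI total moved every oligodendrocyte-like log2 ratio down by 0.16 at 7 dpi and 0.15 at 6 mpi, beside an NRXN2 ratio of 0.19 at 7 dpi.

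**Figure D4:**
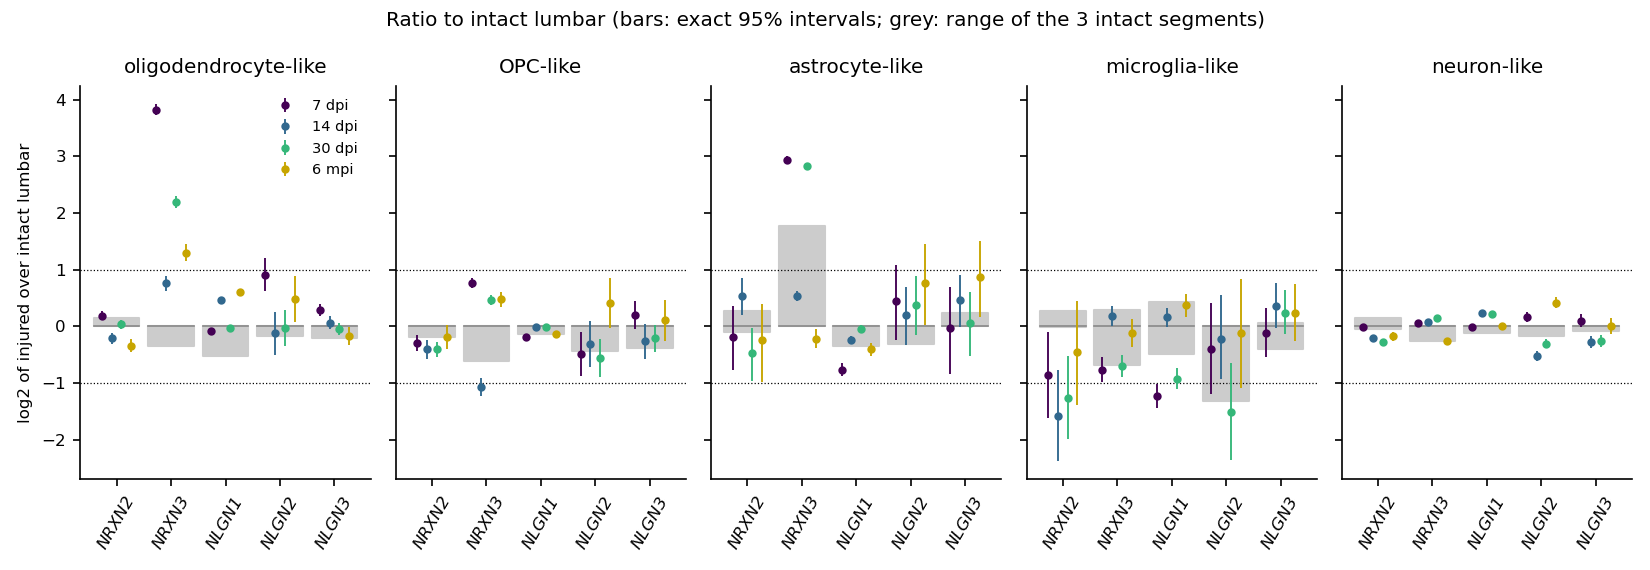
Log2 ratio of each injured lumbar library to intact lumbar for each member in 5 classes of nuclei; points are ratios, bars exact 95% intervals, grey boxes the range of the 3 intact segments and dotted lines a log2 ratio of 1 or -1. NRXN3 in oligodendrocyte-like nuclei reaches 3.82 and in astrocyte-like nuclei 2.94, and all neuron-like ratios stay between -0.52 and 0.42.

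In astrocyte-like nuclei NRXN3 read 4852, 916, 4512 and 544 CPM from 7 dpi to 6 mpi. Only the 7 dpi and 30 dpi libraries lay above the intact range of 632 to 2151, at 7.67-fold and 7.13-fold over lumbar, and the 6 mpi library lay below it. NRXN3 was the 1 member called at 7 dpi and at 30 dpi, and none was called at 14 dpi or 6 mpi, where 18.5%, 9.11%, 7.32% and 16.4% of all genes were called in that order. With the mean of the 3 intact libraries as reference the log2 ratios were 1.71 and 1.60 rather than 2.94 and 2.83, and NRXN3 was then called lower at 6 mpi (-1.45). Astrocyte-like nuclei with no UMI of 20 neuron genes numbered only 11, 16, 3 and 21 from 7 dpi to 6 mpi and 44.6% to 67.9% of all genes were called in them, so no call of a member is read there, although that of NRXN3 at 30 dpi was lost. The astrocyte-like nuclei formed cluster 10, led by SLC14A1 and ITGB4, and cluster 13, led by ITPRID1 and SLC1A2, a glutamate transporter gene. The high NRXN3 levels were those of cluster 10, at 2928 CPM in cervical, 2579 in thoracic and 1363 in lumbar cord, and 8452, 2500 and 6960 after injury, in 60 nuclei of 7 dpi, 90 of 14 dpi and 96 of 30 dpi. Cluster 13 was far lower, at 73.9 to 101 in the 5 libraries that had at least 50 of its nuclei, but it too was higher at 7 and 30 dpi, with 401 CPM (338 to 472) in 39 nuclei and 336 (289 to 389) in 48. In the 30 nuclei of cluster 10 at 6 mpi NRXN3 read 1990 CPM (1760 to 2242).

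Cluster 10 made up 60.7% of astrocyte-like nuclei in cervical, 82.8% in thoracic and 52.2% in lumbar cord, and 60.6%, 35.6%, 66.7% and 27.5% from 7 dpi to 6 mpi. Within cluster 10 NRXN3 was 6.204-fold (5.94 to 6.48), 1.84-fold and 5.11-fold over lumbar at 7, 14 and 30 dpi. Against the highest intact segment the folds were 2.89, 0.854 and 2.38. Ependymal markers, which NRXN3-rich ependymal-like nuclei express, summed to 252 to 288 CPM in astrocyte-like nuclei of intact cord and to 389, 249, 381 and 272 from 7 dpi to 6 mpi, with FOXJ1 at 0 in the 30 dpi library. The 20 neuron genes summed to 1052 CPM at 7 dpi with 5 of them at 0, to 1051 at 14 dpi with 1 at 0, to 741 at 30 dpi with 2 at 0 and to 546 at 6 mpi with 2 at 0, against 534 to 687 in intact cord with none at 0. RIMS1, a gene of the presynaptic active zone, made up 456 and 599 CPM of the sums at 7 and 14 dpi, against 82.6 to 243 in intact cord, and KCNQ5, a potassium channel gene, 246 at 7 dpi against 120 to 151. The 10 neuron markers used to name classes summed to 243, 290, 336 and 189 from 7 dpi to 6 mpi against 245 to 335, with SLC17A6, GAD1, GAD2 and GRIN1 at 0 at 7 dpi. The part of such nuclei in the NRXN3 level was not tested. NLGN1 in astrocyte-like nuclei read 812, 1175, 1339 and 1044 from 7 dpi to 6 mpi against 1089 to 1385, below the intact range at 7 dpi and 6 mpi. NRXN2, NLGN2 and NLGN3 rested on 17 to 108 UMIs per injured library there.

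In OPC-like nuclei NRXN3 read 792, 223, 647 and 651 CPM from 7 dpi to 6 mpi against 307 to 468 in intact cord. It lay above the intact range at 7 dpi, 30 dpi and 6 mpi and below it at 14 dpi, at 0.478 of the lumbar level, the 1 call of a member among OPC-like nuclei. Shares of all genes called were 8.26%, 5.76%, 5.59% and 11% from 7 dpi to 6 mpi. All 5 members were tested at each time. The log2 ratio at 14 dpi was -1.07, and the call was lost when doublets were kept (-0.99), when nuclei were thinned (-0.79) and against the mean of the intact libraries (-0.74). With that last reference NRXN3 was instead called higher at 7 dpi, at 1.09 rather than 0.76, and with each nucleus named alone that ratio was 0.15. Beside the 7 dpi level, 6 astrocyte markers in OPC-like nuclei, none at 0, summed to 1428 CPM at 7 dpi and to 778.7 to 866 in the other injured libraries, against 809 to 896 in intact cord. The 6 ependymal markers summed to 114, 61.6, 75.7 and 60.6 from 7 dpi to 6 mpi, against 47.7 to 56.5, with SPAG17 at 0 at 7 dpi, FOXJ1 and SPAG17 at 14 and 30 dpi and FOXJ1 at 6 mpi. Their part in the NRXN3 level was not tested. NLGN1 ran from 5554 to 6255 in the injured libraries against 5747 to 6321, and only the 7 dpi level lay below the intact range. NRXN2 was below the intact range of 256 to 290 in all 4 injured libraries, at 237, 219, 219 and 255. NLGN2, at 32.1 to 62.8 CPM after injury, left its intact range in both directions, and NLGN3, at 65.7 to 90.9, was above its range at 7 dpi and 6 mpi and inside it at 14 and 30 dpi.

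Microglia-like nuclei, a class taken to lack NRXN3, served as the background. NRXN3 there read 25.6, 49.2, 26.8 and 39.9 CPM from 7 dpi to 6 mpi, against 27.0 to 52.7 in intact cord. Whether this background stands for RNA carried into other classes was not tested. NLGN1 read 22.5, 58.7, 27.8 and 68.4, and its level at 7 dpi was called lower than the intact 37.6 to 70.7. Its log2 ratio to lumbar was -1.23, and with doublets kept it was -0.47 and the call was lost. That was the 1 call among the 3 members that passed the minimum of 5 CPM on average; NRXN2 and NLGN2 did not pass it. NLGN1 was also called higher at 6 mpi with doublets kept and at the lower clustering resolution, and lower at 30 dpi with nuclei named alone, with thinned nuclei and in nuclei with no UMI of the neuron genes. Of all genes 12.4%, 9.24%, 12.6% and 15.5% were called from 7 dpi to 6 mpi. NLGN3, at 8.83 to 12.2 after injury, was within or above its intact range of 7.26 to 9.96. SERPINA3, by contrast with NRXN3, was higher at 7 dpi in every class, including microglia-like nuclei at 56.3 against 0.819 and neuron-like nuclei at 19.6 against 0.394 in intact lumbar cord.

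Neuron-like nuclei showed little difference in any member. None of the 5 was called at any time, where 1.42%, 1.26%, 1.28% and 2.17% of all genes were called from 7 dpi to 6 mpi. NRXN3 read 3932, 3988, 4190 and 3151 CPM against 3173 to 3777 in intact cord. NLGN1 read 3153, 3753, 3698 and 3225 against 2939 to 3197, at most 1.17-fold over lumbar. NLGN2 was the most variable, with 38.4, 23.8, 27.7 and 45.6 against 30.2 to 34.5, so it lay below the intact range at 14 and 30 dpi and above it at 7 dpi and 6 mpi. NLGN3 read 24.2, 18.5, 18.9 and 22.6 against 21.3 to 22.6. NRXN2 read 89.0, 77.9, 73.9 and 79.6 against 87.0 to 99.3, below the intact range at the last 3 times. NRXN2, NLGN2 and NLGN3 were lowest at 14 or 30 dpi, the times at which NLGN1 was highest, and animal and time cannot be told apart here.

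NRXN3 differed more among neuron-like nuclei than between libraries. Nuclei with UMIs of SLC17A6, the vesicular glutamate transporter, and none of GAD1, GAD2, SLC6A5 or SLC32A1 were taken as one set, and nuclei with the reverse, GABA or glycine genes only, as the other. NRXN3 in the inhibitory set read 5847, 5212 and 5813 CPM in intact cervical, thoracic and lumbar cord and 5998, 6633, 6657 and 5650 after injury. The SLC17A6 set read 1176, 1046 and 1373, then 1406, 1228, 1301 and 1076. The inhibitory set was thus 4.23-fold to 5.40-fold higher in 7 of 7 libraries. NLGN1 went the other way, 1.27-fold to 1.44-fold higher in the SLC17A6 set in 7 of 7 libraries. The SLC17A6 set over the inhibitory set was 0.998-fold to 1.19-fold for NLGN2, known from inhibitory synapses, 0.895-fold to 1.17-fold for NLGN3 and 0.826-fold to 1.05-fold for NRXN2, so none of them kept 1 direction in all libraries. Median depths of the sets were 24834 and 28732 UMIs at 7 dpi, the inhibitory nuclei being the deeper in every library.

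**Figure D5:**
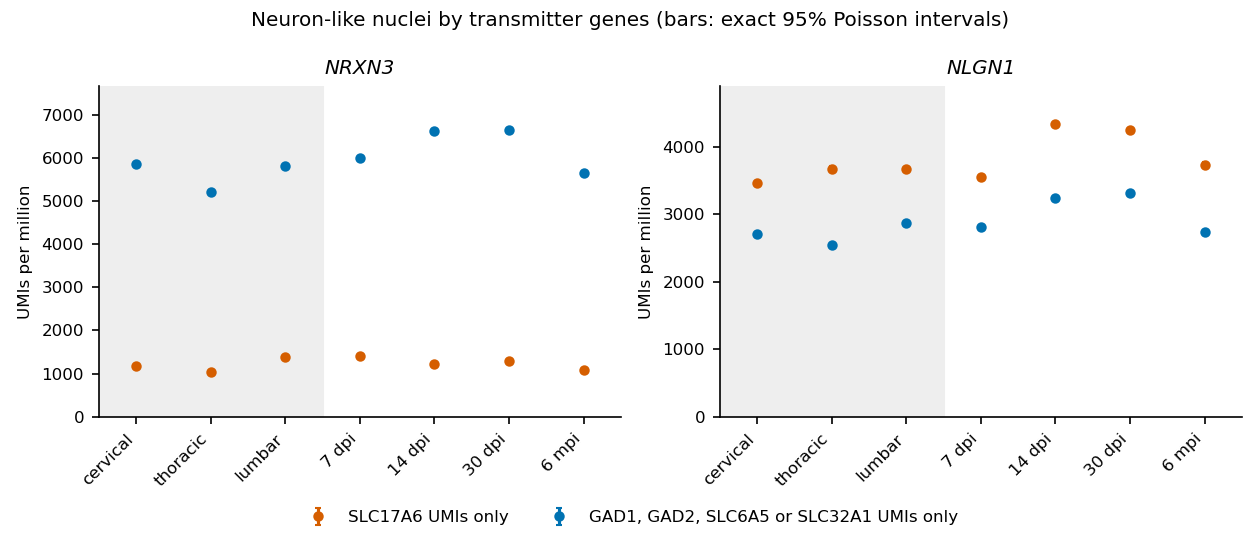
CPM of NRXN3 (left) and NLGN1 (right) in neuron-like nuclei with UMIs of SLC17A6 only or of GAD1, GAD2, SLC6A5 or SLC32A1 only, by library; bars, mostly smaller than the points, are exact 95% Poisson intervals, axes start at 0 and grey marks the intact segments. The inhibitory set holds 5212 to 6657 CPM of NRXN3 against 1046 to 1406, and the NLGN1 order is reversed.

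Across neuron-like clusters NRXN3 ran over a wide scale. Cluster 19, whose leading genes include PAX8, GAD1 and GAD2, held 5980 to 6826 CPM over the 7 libraries, and cluster 20, led by PDYN, the prodynorphin gene, held 4761 to 6854. Cluster 23, with TAC1, the substance P precursor gene, among its leading genes, held 376 to 619, and cluster 16, led by NMUR2, 212 to 575. Other clusters were less extreme. Cluster 4, the largest with 4503 nuclei, held 3755 to 4802, and cluster 18, with GBX1 and LHX1 among its leading genes, 1916 to 3230. For NLGN1 clusters 19 and 20 were below clusters 23 and 16, at 2386 to 3437 and 2736 to 3711 against 5170 to 7651 and 4876 to 6458. Cluster 17, with CBLN1 and PIEZO2 among its leading genes, had the lowest NLGN1, 1501 to 1974, and an intermediate NRXN3 of 1222 to 1963. NRXN2, NLGN2 and NLGN3 had overlapping ranges in all of these clusters.

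The trans-synaptic partners of neurexins beyond neuroligins were followed as a list of 23 genes: leucine-rich repeat proteins (LRRTM), cerebellins and their GRID receptors, dystroglycan, calsyntenins, latrophilins, neurexophilins, C1q-like proteins and IGSF21. In oligodendrocyte-like nuclei 9 of the 23 were tested. None was called at 7, 14 or 30 dpi and 1 at 6 mpi, CLSTN2, at 5.81 CPM against 10.8 to 13.9 in intact cord, where 6.82% of all genes were called. The median log2 ratio of the 9 was 0.04, 0.16, 0.27 and 0.09 from 7 dpi to 6 mpi, beside 0.12, -0.03, -0.01 and 0.11 over all genes tested. GRID1, a receptor of cerebellins, read 469, 473, 574 and 486 CPM from 7 dpi to 6 mpi against 393 to 425, above its intact range at all 4 times. In OPC-like nuclei 1, 0, 1 and 0 of 15 tested partners were called higher from 7 dpi to 6 mpi, and 0, 1, 1 and 1 lower. Astrocyte-like nuclei had 1, 2, 0 and 1 of 13 higher and 3, 0, 0 and 1 lower. Microglia-like nuclei had 0, 2, 1 and 1 of 10 higher and 3, 0, 2 and 0 lower. Of all genes 5.59% to 11%, 7.32% to 18.5% and 9.24% to 15.5% were called in these classes.

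In neuron-like nuclei 18 of the 23 partners were tested and none was called, where 1.26% to 2.17% of all genes were, with medians between -0.15 and -0.01 beside -0.04 to 0.04 over all genes tested. CLSTN3 had 130 CPM at 7 dpi and 113 at 6 mpi against 77.7 to 80.9, and IGSF21 57.8 to 59.97 at all 4 times against 78.0 to 87.7, both outside their intact ranges without passing the fold. Among 17 scaffold genes, all 17 were tested in neuron-like nuclei and none was called. In oligodendrocyte-like nuclei 14 were tested. LIN7B, a partner of CASK, the scaffold that binds neurexin tails, was the 1 call at 7 dpi, where 6.55% of all genes were called, with 15.5 CPM against 3.31 to 4.99. DLG3 and SHANK3, both of postsynaptic scaffolds, were called lower at 30 dpi, where 4.12% of all genes were called, DLG3 with 16.1 against 31.6 to 36.3 and SHANK3 with 2.06 against 13.5 to 14.4. None of the 17 was called at 14 dpi or 6 mpi. LIN7B at 7 dpi was above the intact range in the other classes as well. It read 22.0 in neuron-like nuclei against 9.04 to 11.3 and 15.1 in OPC-like nuclei against 4.21 to 7.29. Astrocyte-like nuclei had 13.8 against 5.43 to 6.23, and microglia-like nuclei 17.9 against 6.73 to 10.1.

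The 3 binders and relatives listed beside the members were MDGA1 and MDGA2, which bind neuroligins and block their contact with neurexins, and NLGN4X, a further neuroligin. None was called in oligodendrocyte-like, OPC-like or neuron-like nuclei. In microglia-like nuclei MDGA2 was called lower at 7 dpi, 30 dpi and 6 mpi, at 26.4, 39.0 and 79.3 CPM against 274 to 309. Of all genes 12.4%, 12.6% and 15.5% were called there at these times. In astrocyte-like nuclei MDGA1 was called higher at 7 dpi and 6 mpi, at 16.3 and 7.20 against 2.43 to 5.99, where 18.5% and 16.4% of all genes were called. MDGA2 in oligodendrocyte-like nuclei read 2113, 3656, 2814 and 2560 CPM from 7 dpi to 6 mpi against 3043 to 3162. Its lowest level there was that of 7 dpi. A low level at 7 dpi was not particular to this class, as the microglia-like 26.4 shows. Nor did MDGA2 follow the reverse order of NRXN3 in oligodendrocyte-like nuclei. Each was lower at 6 mpi than at 30 dpi, NRXN3 with 82.7 against 153 CPM. MDGA1 in oligodendrocyte-like nuclei read 2.37 at 7 dpi against 4.32 to 7.14. NLGN4X, like NLGN1, had its highest level in OPC-like nuclei, 1118 to 1177 CPM in intact cord against 355 to 449 in neuron-like nuclei, and 1053 to 1312 after injury.

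Genes with the most similar levels were found by Pearson's r of log2 levels over 5 classes in 7 libraries, 35 points among 11166 genes. The points share libraries and classes, so r describes likeness and carries no test. For NRXN2 they were CYFIP2 (r = 0.98), PHACTR3, SH3D19, NCAM2 and KIF3A, and for NLGN3 RTKN (r = 0.95), PLAAT1, TGFA, HIP1 and SMOC1. For NLGN1 they began with an unnamed identifier, ENSMMUG00000051631, and CSMD2 (r = 0.98 each), before MPP3, LRRN1 and NOVA1. For NLGN2 LRRC4B and CAPN5 (r = 0.96 each), RUNX1T1, ENSMMUG00000041942 and TAFA5 came first. NRXN3 was most like NYAP1 (r = 0.95), NDRG4, WIPF3, FRMPD3 and PLEKHA5. Over the 7 libraries in oligodendrocyte-like nuclei alone the genes most like NRXN3 were PRAG1 (r = 0.99), KLK6, RAB3D, RPS23 and SLC9A8. Their own range was small: PRAG1 read 36.6 to 42.7 CPM in intact cord and 92.6, 44.2, 66.1 and 49.4 after injury. KLK6, a kallikrein protease of oligodendrocytes, read 67.3 to 71.97 and then 134, 81.3, 96.6 and 91.1, which puts the 4 injured libraries in the same order as NRXN3 but not the intact ones.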

How the data were processed

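Nuclei of 7 spinal cord samples were sequenced on the 10x Chromium platform. Per the labels and the submitters' processing notes, the authors aligned reads to Mmul_10 with Cell Ranger 6.0.0 and deposited filtered count matrices, in which each value is a count of UMIs. The annotation release and the use of intronic reads are not given in the sources used here. From these counts, nuclei were kept that had more than 1000 UMIs from more than 500 genes, with hemoglobin genes below 5% and mitochondrial genes below 10% of the total, and the 5% with the highest Scrublet doublet score were removed in each library. Nuclei were clustered with scanpy 1.11.5 and leidenalg 0.10.2 (2000 variable genes without the members, 30 components, 20 neighbours, resolution 1), which gave 35 clusters. A cluster was named "-like" for 1 of 11 classes from its marker genes, needing 3 markers. It was left unnamed as a mixture where a second class scored more than 0.5 of the first and over 0.3, and that floor of 0.3 was set after the clusters were seen. A cluster was also left unnamed where its leading genes held more markers of another class than of its best-scoring class. The same held where it was far shallower than its libraries and led by no marker of that class. Cluster 14, 1306 nuclei that scored highest as oligodendrocyte (0.524, next class 0.149), was unnamed without being a mixture by this rule.

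UMIs were summed per class and library and given as CPM. Of 35432 identifiers, 959 took their name from the reference table. Genes with a mean of at least 5 CPM in a class were tested against the rule for a call, a log2 ratio to intact lumbar past 1 with a pseudocount of 1 and a level outside the 3 intact segments. The rule was tested on simulated data. No p-value was computed, since each group had 1 library, and intervals (scipy 1.17.1) cover counting error only. Genes named are the 5 members, up to 4 genes of each list, genes the study named beside NRXN3 and the 5 genes most alike to each member. Members and lists were chosen with earlier results of these data known. Doublets, resolution, naming, reference, thinning, scaling and filters were varied.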

Additional observations from a re-analysis of the deposited data

How the results depend on the processing

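The log2 ratio of NRXN3 in oligodendrocyte-like nuclei to intact lumbar cord kept its direction at all 4 times under 9 alternatives. At 7 dpi, where it was 3.82, it was 3.52 with each nucleus named alone, 3.94 against the mean of the 3 intact libraries, 3.67 with median-of-ratios scaling and 3.68 with nuclei thinned to 1000 UMIs. At 14 dpi, where it was 0.76, it was 0.58 after thinning and 0.55 in nuclei with no UMI of the neuron genes. At 30 dpi, where it was 2.19, it was 2.31 against the mean of the intact libraries and 1.88 after thinning. At 6 mpi, where it was 1.30, it was 1.15 with median-of-ratios scaling and 1.67 in nuclei with no UMI of the neuron genes. The cause of these shifts was not tested. None of the 7 called ratios of members changed sign under the alternatives that gave a value, which were 8 for NRXN3 in OPC-like nuclei at 14 dpi, where nuclei with no UMI of the neuron genes gave no ratio, and 9 for the others. The NRXN3 ratio in astrocyte-like nuclei ran from 1.71 to 3.10 at 7 dpi and from 1.18 to 2.999 at 30 dpi, where the lowest value, in the 3 nuclei with no UMI of the neuron genes, was no longer called, and the NLGN1 ratio in microglia-like nuclei at 7 dpi, -1.23, was -0.47 at its weakest, with doublets kept. The mixture rule without its floor of 0.3, chosen after seeing the data, left the 4 oligodendrocyte-like ratios as they were.

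The counts of genes called, from the lowest to the highest of the 4 times, were 400 to 663 in oligodendrocyte-like nuclei, 656 to 1170 with a minimum mean of 1 CPM, and 1188 to 2003 with a log2 ratio past 0.58. The corresponding counts were 588 to 1161, 1127 to 2326 and 1848 to 2954 in OPC-like nuclei, 820 to 2069, 1624 to 3490 and 2272 to 4327 in astrocyte-like nuclei, 955 to 1598, 1344 to 2265 and 2361 to 3444 in microglia-like nuclei, and 142 to 244, 301 to 430 and 595 to 1138 in neuron-like nuclei. With the ratio past 0.58, NRXN3 was also called in oligodendrocyte-like nuclei at 14 dpi, NLGN2 at 7 dpi and NLGN1 at 6 mpi, NRXN3 was called higher in OPC-like nuclei at 7 dpi and lower in microglia-like nuclei at 7 and 30 dpi, NLGN1 lower in astrocyte-like nuclei at 7 dpi and in microglia-like nuclei at 30 dpi, and NLGN2 and NLGN3 higher in astrocyte-like nuclei at 6 mpi. In astrocyte-like nuclei NLGN2 was called higher at 6 mpi with each nucleus named alone, and after thinning NLGN2 was called higher at 7 dpi and 6 mpi, NLGN3 lower at 7 dpi and NRXN2 lower at 30 dpi and 6 mpi. With the minimum mean of 1 CPM NRXN2 was called lower in microglia-like nuclei at 14 dpi. No paired analysis was possible because each group had 1 library and no result came from a test. In oligodendrocyte-like nuclei NLGN2 had the fewest UMIs of the members, 78 to 264 per library.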
